A study of Mus musculus with 12 samples.

Results

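Messenger RNA was compared between 4T1 cells carrying the guide named sgRNA2 against Cebpd and 4T1 cells carrying a control guide against the Rosa26 locus, all after 24 hours of interferon gamma (IFN-gamma) at 20 ng/ml. 4T1 is a BALB/c mouse line from a mammary carcinoma. The comparison used 4 of the 12 libraries of the series, 2 with sgRNA2 and 2 controls, chosen by their labelled guide and treatment. The other groups, of 2 libraries each, carried sgRNA1 against Cebpd in IFN-gamma, or the control guide, sgRNA1 or sgRNA2 in vehicle. All genes of the table were considered, and 13601 of 16283 had enough counts to be tested. The labels call the cells with either Cebpd guide knockout and those with the Rosa26 guide control. They give no target sites for the guides. Nor do they say whether a line is a clone or whether both libraries of a group are separate cultures. The p-values therefore rest on a spread between samples that may be technical. In these bulk samples, fewer cells of a type and less RNA per cell cannot be told apart.

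Cebpd encodes C/EBPδ, a transcription factor of the basic leucine zipper class that is induced by inflammatory cytokines and binds promoters of acute phase and cytokine genes. IFN-gamma binds a receptor of IFNGR1 and IFNGR2 chains, and signals through the kinases JAK1 and JAK2. Induced factors such as IRF1 then raise genes of antigen presentation, guanylate-binding proteins and chemokines.

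The 4 libraries held 21485951 and 20165003 counts in control and 18625885 and 24784371 with sgRNA2, within the range of all 12 libraries (16912710 to 24784371). Mitochondrially encoded genes took 1.03% and 1.18% of counts in control and 0.628% and 0.533% with sgRNA2. Listed ribosomal protein genes took 5.79% and 5.77% in control and 8.33% and 7.68% with sgRNA2. Levels are in CPM, the usual depth-scaled count unit, here with TMM library sizes. Of 10 mammary epithelium markers, 9 were measured. Their summed level was 4250 and 4200 CPM in control and 3500 and 3280 CPM with sgRNA2. Of the 9, 7 were lower and 2 higher (edgeR adjusted p below 0.05). The higher ones were Krt14 (4.69 and 4.37 CPM in control, 11 and 10 CPM with sgRNA2) and Cldn7 (62.7 and 57.7 CPM, then 101 and 101 CPM). The only leukocyte marker measured, Ptprc, had 3 and 4 counts in control and 0 in both sgRNA2 libraries. Summed myeloid markers lay between 46.5 and 51.5 CPM, mostly from Cd68, and summed fibroblast markers between 24.3 and 28.7 CPM, mostly from Pdgfra. By the same test, of 5 myeloid markers 3 were higher and 1 lower, and of 3 fibroblast markers 2 were higher and 0 lower. Summed endothelial markers reached at most 0.322 CPM. The part of these markers in the results below was not tested.

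With sgRNA2, 4105 genes were higher and 4297 lower than in control, 8402 of 13601 in all (edgeR adjusted p below 0.05). This is 61.8% of the genes tested, 30.2% higher and 31.6% lower, so a call alone does not set a gene apart. Counts of list members given below are to be read against these shares. At least 2-fold differences were fewer, with 792 genes higher (5.82%) and 407 lower (2.99%). The median log2 fold change over all genes was 0.03. With upper quartile scaling it moved by 0.105, and the higher share of calls went from 48.9% to 58.2%.

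**Figure D1:**
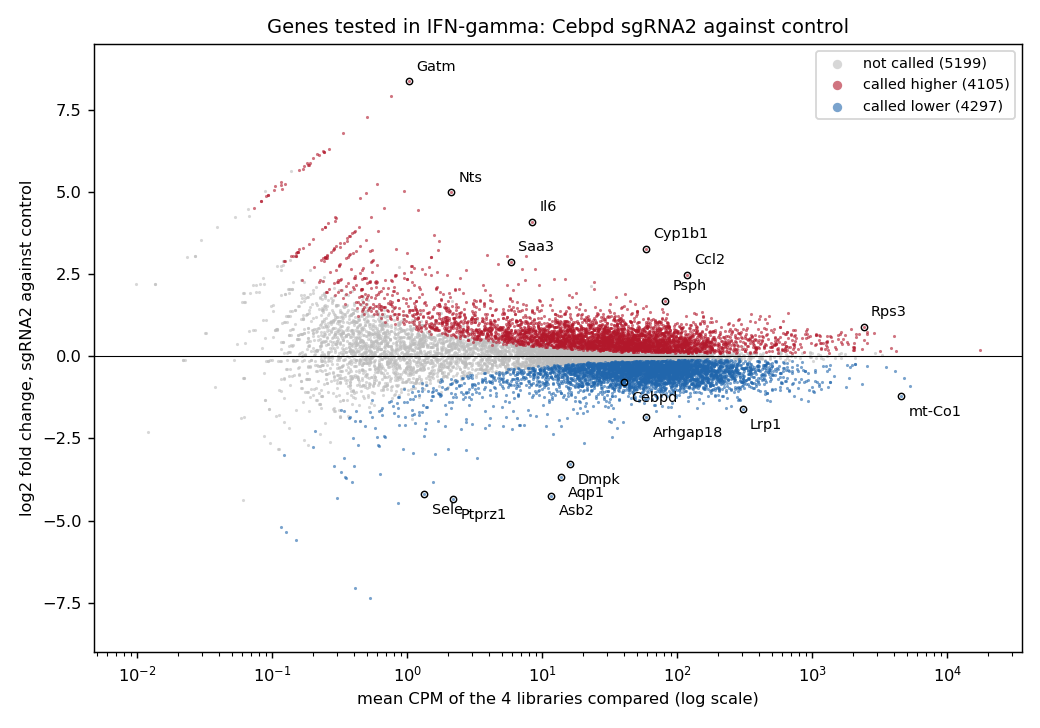
Each point is 1 of the 13601 genes tested, placed by its mean CPM over the 4 libraries (log axis) and its log2 fold change of sgRNA2 against control in IFN-gamma. The 4105 genes called higher are red, the 4297 called lower are blue, and circles mark named genes, from Gatm at the top to Ptprz1 and Asb2 at the bottom. Gatm had no control count, so its height depends on the fit's prior count.

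The differences followed the exonic length of the genes. Genes were split by exonic length into 5 bins of about equal size. In the bin with the shortest genes (165 to 2181 bases), the median log2 fold change was 0.36, and 1102 genes were called higher against 273 lower. In that with the longest (7264 to 123200 bases), it was -0.28, with 435 higher and 1532 lower. Across 13505 genes with a length, Spearman's rho between length and log2 fold change was -0.324, a description across genes, which are not independent replicates. An offset fitted to length in each library, added after seeing the data, kept 6884 of the 8402 calls with their sign. Under it 1434 were lost and 84 changed sign, and values with this offset stand beside the gene lists where it moves a count or the median by over 1.5 times. Other comparisons had such trends from the shortest to the longest bin. The median ran from 0.14 to -0.19 for sgRNA1 against control in IFN-gamma, and from 0.41 to -0.15 for sgRNA2 against control in vehicle. It ran from 0.16 to -0.08 for sgRNA2 against sgRNA1, and from -0.23 to 0.25 for IFN-gamma against vehicle in control. List counts of those comparisons are given without the offset. The cause of the trends was not tested.

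**Figure D2:**
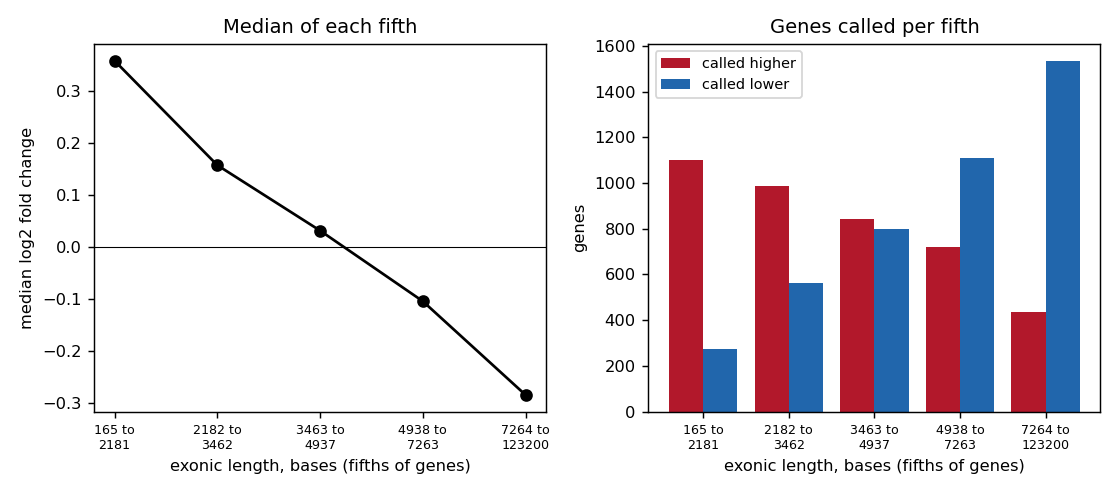
Genes are split into 5 bins by exonic length in bases. The left panel plots the median log2 fold change of sgRNA2 against control in IFN-gamma, which runs from 0.36 to -0.28, and the right panel plots the number of genes called higher (red) and lower (blue) in each bin.

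Cebpd mRNA was present in all 4 libraries. It stood at 53.5 and 49.1 CPM in control (1106 and 956 counts) and at 30.2 and 29.4 CPM with sgRNA2 (563 and 749 counts). Both sgRNA2 libraries lay below both controls, and Cebpd fell by 0.78 ± 0.09 on the log2 scale (SE, edgeR adjusted p = 3.028e-07). This fall was not shared by vehicle. The log2 fold change in IFN-gamma minus that in vehicle was -1.02, so the vehicle estimate for Cebpd lay above control. The gene (ENSMUSG00000071637.5, GRCm38 chromosome 16, 15887286 to 15891031) overlaps Spidr on the opposite strand, which was not called (-0.08). The strand setting of the counting is not given, so genes that overlap on opposite strands are treated here as not separable. A count for the whole gene is blind to small edits, so it is no check of the knockout.

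Among genes averaging at least 1 CPM, the largest rises included Gatm, Nts, Ptx3 and Il6. Gatm, which makes the creatine precursor guanidinoacetate, had no count in either control library and 31 and 62 counts with sgRNA2, at least 13.7-fold higher against a floor of 3 counts per library. The neuropeptide gene Nts stood at 0.0967 and 0.154 CPM in control and 3.81 and 4.43 CPM with sgRNA2 (log2 fold change 4.98 ± 0.41, edgeR adjusted p = 8.059e-09). Both genes were near the detection floor in control and clearly counted in both sgRNA2 libraries. Il6, the cytokine interleukin 6, was at 0.677 and 1.18 CPM in control and 14.6 and 17.1 CPM with sgRNA2 (4.10 ± 0.23, adjusted p = 5.214e-11 by edgeR). Its pairs of libraries did not overlap, which was a condition for choosing the 10 largest rises. Ptx3, a secreted pattern recognition protein, had 4 and 0 counts in control and 37 and 67 with sgRNA2 (4.46 ± 0.57). Cyp1b1, a cytochrome P450 that oxidizes steroids and aromatic hydrocarbons, was the most abundant of the 10, at 10.6 and 11.6 CPM in control and 107.7 and 106.2 CPM with sgRNA2 (3.27 ± 0.08, edgeR adjusted p = 6.58e-15). The others were the receptor gene Fgfr1 (3.68), Tmem159 (3.52), Kif26b (3.24), Ndrg2 (3.08) and the semaphorin Sema3c (3.04).

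Among the 10 largest falls were Ptprz1, Asb2 and Sele. Asb2, a subunit of an E3 ubiquitin ligase, went from 23.2 and 21.3 CPM in control to 0.913 and 1.37 CPM with sgRNA2 (-4.24 ± 0.23, edgeR adjusted p = 4.214e-11). The water channel gene Aqp1 went from 25.6 and 25.5 CPM to 2.63 and 1.49 CPM (-3.67 ± 0.18). The kinase gene Dmpk went from 29.6 and 29.0 CPM to 2.69 and 3.26 CPM (-3.28 ± 0.14). The groups did not overlap in any of the 10 falls, by the same condition of choice. The receptor-type phosphatase Ptprz1 (-4.33) had 77 and 91 counts in control and 2 and 7 with sgRNA2. Pigr (-3.10), which carries polymeric antibodies across epithelia, fell as well, and so did Sele (-4.18), an adhesion receptor gene with few counts and a wide error. Hsf2bp (-2.97), Add2 (-2.94) and the iron-binding Ltf (-2.86) were also among them. Hsf2bp overlaps Rrp1b on the opposite strand, which rose (0.34).

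Among the more abundant genes, those averaging 50 CPM or more, changes were smaller. Ccl2, a chemokine that attracts monocytes, stood at 35.6 and 36.0 CPM in control and 205.4 and 193.0 CPM with sgRNA2 (2.47 ± 0.06, edgeR adjusted p = 4.718e-15). After Cyp1b1 and Ccl2 came Psph of serine synthesis (1.69), which overlaps the risen Cct6a (0.89) on the opposite strand, then Mal2 (1.54), Rexo2 (1.46), Tyms of thymidylate synthesis (1.43), Alg5 (1.38) and Yrdc (1.37). Arhgap18, a GTPase activating protein, went from 93.5 and 90.5 CPM to 24.4 and 26.1 CPM (-1.86 ± 0.07). Lrp1, an endocytic receptor, went from 461 and 456 CPM to 150.4 and 153.3 CPM (-1.59 ± 0.05). These abundant genes, too, were chosen only where the pairs of libraries did not overlap. The other abundant falls were Rnf145 (-1.82), Plet1 (-1.67), Mknk2 (-1.59), Cx3cl1 (-1.58), Sorl1 (-1.54) and Txnip (-1.54).

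Genes of the IFN-gamma response were mostly lower with sgRNA2. Of 39 tested members of the list, 25 fell (64.1%) and 7 rose. The median of their log2 fold changes was -0.47, against 0.03 for all genes. With the length offset, 28 fell and 7 rose. The guanylate-binding protein gene Gbp4 was at 1354 and 1395 CPM in control and 663 and 671.6 CPM with sgRNA2 (-1.04 ± 0.04, edgeR adjusted p = 1.135e-12), and the transcription factor gene Batf2 at 52.6 and 52.8 CPM and 21.5 and 21.4 CPM (-1.30 ± 0.10). In each, both sgRNA2 libraries lay below both controls. Gbp4 has near-identical copies among the guanylate-binding protein genes, so its reads may be split or shared. The rises were led by Gch1, which makes the cofactor tetrahydrobiopterin (9.77 and 9.10 CPM in control, 28.2 and 28.5 CPM with sgRNA2, 1.59 ± 0.13), the chemokine Cxcl11 (1.05 ± 0.08) and Serpina3f (0.87 ± 0.11).

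Of 30 tested components and feedback regulators of JAK-STAT signalling, 21 fell and 2 rose (median -0.39, and 21 and 3 with the length offset). Il6ra, the interleukin 6 receptor chain, went from 31.1 and 29.9 CPM to 11.2 and 11.6 CPM (-1.42 ± 0.11, edgeR adjusted p = 2.09e-09), while its ligand Il6 rose. The kinase gene Tyk2 fell by 0.96 ± 0.09 on the log2 scale. The 2 rises were small, Ptpn2 at 0.29 and Usp18 at 0.21, and with an offset for length and GC they were 0.0001 and -0.0383. Usp18 was also not called with the length offset (0.04) or by DESeq2 (0.19). Without either control library, or without sgRNA2 replicate 1, 1 gene of the list was called higher. Of 34 type I interferon-stimulated genes 11 rose (32.4%) and 13 fell (38.2%), near the 30.2% and 31.6% of all genes (median -0.08). With upper quartile scaling 13 of the list rose and 6 fell (median 0.03). Oas3, an antiviral enzyme, went from 235.6 and 233.3 CPM to 101.3 and 101.8 CPM (-1.21 ± 0.05), whereas Rsad2 rose from 23.4 and 25.5 CPM to 53.3 and 51.3 CPM (1.09 ± 0.11).

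In antigen presentation, 12 of 25 class I genes fell and 3 rose (median -0.07). The median became 0.04 with upper quartile scaling, with 9 lower and 7 higher, and -0.29 with the length offset, with 18 lower and 2 higher. Tapbp and Tap2, of the peptide loading complex, fell by 0.75 ± 0.05 and 0.68 ± 0.05 on the log2 scale. Of 10 class II genes, 4 fell and 1 rose (median -0.18), and with the length offset 6 fell and none rose (median -0.36). The rise, H2-Ab1 (0.46), was not called with that offset (0.27, edgeR adjusted p = 0.1363), by DESeq2 (adjusted p = 0.05038), or without control replicate 1 or sgRNA2 replicate 2. Ciita, the class II transactivator, went from 43.2 and 43.3 CPM to 20.8 and 24.3 CPM (-0.94 ± 0.15). Among 16 genes of the checkpoint and NK ligand list, 6 fell and 4 rose (median -0.23, with fewer rises without control replicate 1). The rises include 2 genes that encode no such ligand, the death receptor Fas and the proton channel Hvcn1. Hvcn1 had 3 counts in the control pair and 29 in the sgRNA2 pair. With upper quartile scaling 7 rose and 6 fell. Vsir, which encodes the inhibitory ligand VISTA, went from 22.2 and 18.2 CPM to 3.60 and 4.20 CPM (-2.36 ± 0.16, edgeR adjusted p = 4.547e-10). Cd274, which encodes PD-L1, went from 142.3 and 150.5 CPM to 78.7 and 77.6 CPM (-0.91 ± 0.09).

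**Figure D3:**
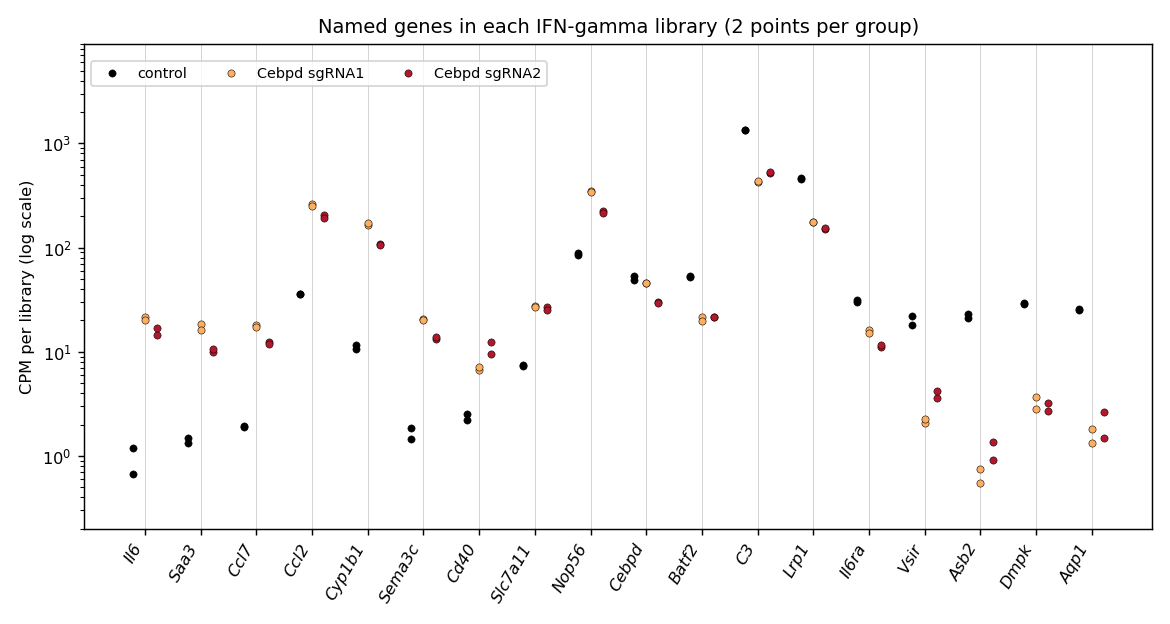
The CPM of 18 named genes (log axis) is plotted for each IFN-gamma library, with 2 points per group for control (black), sgRNA1 (orange) and sgRNA2 (red). In the genes from Il6 to Nop56 both sgRNA2 libraries lie above both controls, and from Cebpd to Aqp1 both lie below.

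Chemokine and inflammatory genes moved both ways. Of 17 chemokine genes 10 rose and 5 fell (median 0.35), and with the length offset 7 rose and 5 fell (median 0.08). With length and GC together the median was -0.02. Ccl7 went from 1.93 and 1.90 CPM to 12.4 and 11.97 CPM (2.66 ± 0.22, edgeR adjusted p = 6.098e-09). Cx3cl1, a membrane-bound chemokine, went the other way, from 343.9 and 345.9 CPM to 118.1 and 112.3 CPM (-1.58 ± 0.05, edgeR adjusted p = 1.303e-13). Of 32 NF-kB and inflammatory genes 14 fell and 5 rose (median -0.12), and with the length offset 18 fell and 7 rose (median -0.24). With length and GC together 8 rose. The rises included Cd40 (2.19 ± 0.20) and Csf2 (1.86 ± 0.19), and the falls Bcl3 (-0.90), Nfkbia (-0.74) and Nfkb1 (-0.63).

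Among 15 genes of the acute phase or known as C/EBP targets, 6 rose and 5 fell (median 0.03), and with the length offset 5 rose and 10 fell (median -0.23). Saa3, serum amyloid A3, went from 1.499 and 1.337 CPM to 9.93 and 10.7 CPM (2.86 ± 0.23, edgeR adjusted p = 6.89e-09). C3, the central complement protein, went from 1335 and 1349 CPM to 522.4 and 533.1 CPM (-1.35 ± 0.04, adjusted p = 1.408e-13 by edgeR). Both groups were separate in each of these genes, in opposite directions. Of 5 genes in the C/EBP list, Cebpz (0.47) and Ddit3 (0.29) rose, and Cebpd and Cebpg (-0.52) fell. Cebpz shares the name but is not of the leucine zipper class. Cebpb, another family member of inflammation, stood at 0.03 (edgeR adjusted p = 0.7544). The median of the 5 listed genes, 0.03, was -0.28 with the length offset and -0.05 without sgRNA2 replicate 2. Of 10 complement genes 3 rose and 2 fell, C3 and C4b (-1.21 ± 0.10). The rises include C1s2, which was not called by DESeq2 (0.43) or with the length offset (0.25). With that offset 2 of the 10 complement genes rose and 2 fell (median -0.06). Their median of -0.02 had the opposite sign, from 0.0019 to 0.125, under upper quartile scaling, total counts alone, the 1 CPM filter and the fit on the compared libraries, and without either control library or sgRNA2 replicate 2.

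The promoters of 2 risen and 2 fallen secreted-protein genes, chosen after their values were seen, are printed because all 4 hold the letters of a C/EBP motif while the genes moved in opposite directions. Each line is the RefSeq window (GRCm38.p6) from 250 bases before to 50 after the gene's start, 5′ to 3′ on the gene's strand, with matches to TTGCNNAA on either strand in capitals. The windows are chr5:30012864-30013163 (plus strand) for Il6, chr3:66219637-66219936 (plus) for Ptx3, chr17:57228087-57228386 (minus) for C3 and chr9:111019042-111019341 (plus) for Ltf.
Il6: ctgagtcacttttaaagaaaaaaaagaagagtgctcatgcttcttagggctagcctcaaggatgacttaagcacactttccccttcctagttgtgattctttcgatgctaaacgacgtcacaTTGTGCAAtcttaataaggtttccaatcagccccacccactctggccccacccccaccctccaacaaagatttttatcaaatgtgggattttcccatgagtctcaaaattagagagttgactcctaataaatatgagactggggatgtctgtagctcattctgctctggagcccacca
Ptx3: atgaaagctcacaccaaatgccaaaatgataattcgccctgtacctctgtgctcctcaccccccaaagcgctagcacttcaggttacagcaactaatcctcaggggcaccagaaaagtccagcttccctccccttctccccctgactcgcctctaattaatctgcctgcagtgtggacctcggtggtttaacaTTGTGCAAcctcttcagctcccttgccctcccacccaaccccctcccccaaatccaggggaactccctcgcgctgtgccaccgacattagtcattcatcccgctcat
C3: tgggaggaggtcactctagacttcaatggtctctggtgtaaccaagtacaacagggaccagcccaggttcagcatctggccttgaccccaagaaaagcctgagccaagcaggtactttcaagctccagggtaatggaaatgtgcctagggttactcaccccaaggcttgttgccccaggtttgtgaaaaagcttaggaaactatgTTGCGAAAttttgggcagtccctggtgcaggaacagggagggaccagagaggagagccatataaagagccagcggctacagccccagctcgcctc
Ltf: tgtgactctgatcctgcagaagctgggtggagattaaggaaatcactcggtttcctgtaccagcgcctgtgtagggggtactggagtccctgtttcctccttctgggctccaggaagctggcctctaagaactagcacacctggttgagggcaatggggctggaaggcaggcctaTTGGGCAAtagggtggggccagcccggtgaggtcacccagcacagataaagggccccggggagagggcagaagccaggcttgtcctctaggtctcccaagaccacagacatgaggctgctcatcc
The match begins 128 bases before the start in Il6, 57 in Ptx3, 45 in C3 and 75 in Ltf. Of 32851 windows of this length in the table, 3547 (10.8%) hold TTGCNNAA on either strand. Windows were found for 10026 tested genes (73.7%), too few for a comparison of motif shares between called genes. A match describes letters only, and does not make a binding site.

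Genes of protein synthesis and amino acid supply were mostly higher. Of 40 ribosome biogenesis genes 30 rose and 3 fell (median 0.43), and with the length offset 31 rose and 5 fell. Nop56, a core protein of box C/D ribonucleoproteins, went from 88.3 and 84.2 CPM to 223.1 and 216 CPM (1.35 ± 0.05, edgeR adjusted p = 2.371e-13). It overlaps Idh3b on the opposite strand. Ncl, which encodes nucleolin, was among the falls (-0.45). Of 51 cytosolic ribosomal protein genes 41 rose and none fell (median 0.38), but with the length offset 25 rose and 8 fell (median 0.10). Rps3, of the small subunit, went from 1701 and 1666 CPM to 3188 and 3037 CPM (0.89 ± 0.04, edgeR adjusted p = 1.215e-11). Without sgRNA2 replicate 1, 1 ribosomal protein gene was called lower.

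The ATF4 programme, which cells use under amino acid shortage and stress, had 26 of 31 genes higher and 1 lower (median 0.49), with 26 and 2 under the length offset. Slc7a11, the cystine transporter, went from 7.30 and 7.45 CPM to 26.9 and 25.2 CPM (1.82 ± 0.11, edgeR adjusted p = 1.893e-10). Chac1, which degrades glutathione, rose by 1.43 ± 0.07, and Psph as given above. In the methionine and one-carbon list 12 of 20 rose and 4 fell, led by Cth (1.05) and Mthfd2 (0.91). Of 32 NRF2 antioxidant genes 19 rose and 7 fell (median 0.27), and with the length offset 16 rose and 8 fell (median 0.10). Nqo1 (1.94 ± 0.14) and Hmox1 (1.12 ± 0.07) rose, while the gene of NRF2 itself, Nfe2l2, fell (-0.52). Of 22 p53 targets 13 rose and 5 fell, with Tigar (1.40), Aen (1.37) and Plk2 (1.34) the largest rises and Bbc3 (-1.02) the largest fall. Without sgRNA2 replicate 1, 3 p53 targets were called lower. In the MYC network, where MNT and the MXD proteins oppose MYC, 9 of 15 genes rose and 5 fell (median 0.32, and 0.15 with the length offset), the falls led by Mnt (-1.03), Mxd1 (-0.85) and Mxi1 (-0.79). Of 23 ER chaperone and unfolded protein response genes 11 fell and 5 rose, with a median of -0.06 that was 0.05 with upper quartile scaling, 0.02 with total counts alone and 0.004 without control replicate 1. With the length offset 3 of them rose and 11 fell (median -0.10).

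**Figure D4:**
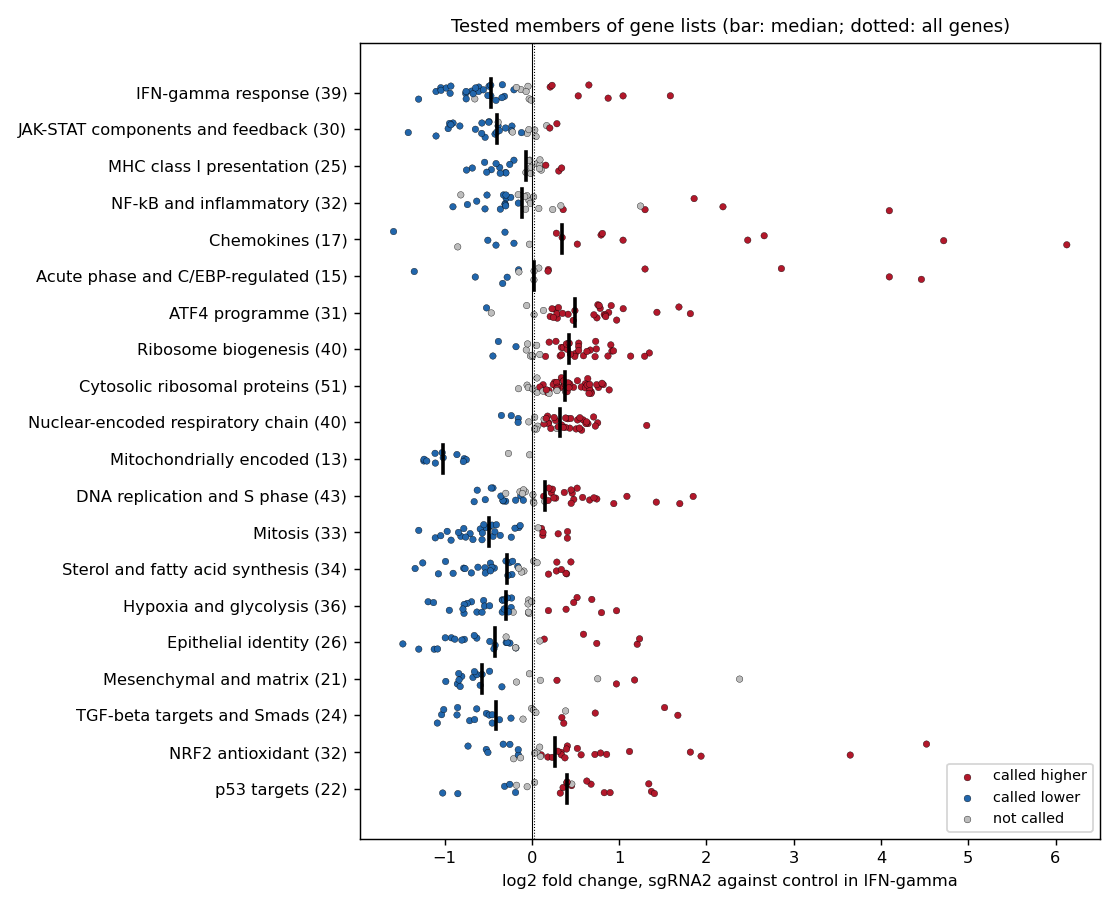
Each point is a tested member of a gene list, placed by its log2 fold change of sgRNA2 against control in IFN-gamma and coloured red (called higher), blue (called lower) or grey (not called). Bars mark list medians, from -1.01 for mitochondrially encoded genes to 0.49 for the ATF4 programme, and the dotted line marks the median of all genes, 0.03.

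Cell cycle genes were grouped by phase. Of 43 DNA replication and S phase genes 22 rose and 12 fell (median 0.15). The cyclin genes Ccne2 and Ccne1, which act at entry into S phase, were among the rises. Ccne2 went from 7.88 and 5.86 CPM to 25.9 and 23.9 CPM (1.85 ± 0.10, edgeR adjusted p = 5.618e-11), and Ccne1 rose by 1.70 ± 0.13. Of 33 mitosis genes 26 fell and 6 rose (median -0.49, with 25 and 4 under the length offset). Cenpf, a kinetochore protein gene, went from 210.3 and 202.6 CPM to 80.2 and 87.7 CPM (-1.30 ± 0.05), and Mki67 from 544.5 and 553.8 CPM to 257 and 275.6 CPM (-1.04 ± 0.05). Cdk1, the mitotic kinase, rose (0.41 ± 0.04). Of 33 cell death genes 14 fell (42.4%) and 12 rose (36.4%), beside 31.6% and 30.2% of all genes. Fewer of the list were called higher without control replicate 1. The list's median of -0.08 was 0.02 with upper quartile scaling and 0.003 without sgRNA2 replicate 1. Bbc3, Bcl2 (-0.95) and Bmf (-0.86) were the largest falls, and Bik (1.29) and Fadd (0.84) the largest rises among members averaging at least 1 CPM. Without sgRNA2 replicate 2 Bik was not called (1.04, edgeR adjusted p = 0.06931). With the length offset 8 cell death genes rose.

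Mitochondrial genes were read from both genomes. Of 13 mitochondrially encoded genes 11 fell and none rose (median -1.01), and without sgRNA2 replicate 2 there were 7 lower and 1 higher. mt-Co1, a subunit of cytochrome c oxidase, went from 6169 and 6604 CPM to 2863 and 2684 CPM (-1.20 ± 0.05, edgeR adjusted p = 1.505e-12). Of 40 nuclear genes of the respiratory chain 29 rose and 4 fell (median 0.32), and with the length offset 17 rose and 9 fell (median 0.07). Uqcrq, a subunit of complex III, rose most among those named, from 77.0 and 75.0 CPM to 189.9 and 188.7 CPM (1.32 ± 0.05).

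Lipid synthesis and glycolysis genes were mostly lower. In sterol and fatty acid synthesis, 22 of 34 genes fell and 7 rose (median -0.29). Fasn, fatty acid synthase, went from 423.7 and 406.6 CPM to 162.8 and 165.9 CPM (-1.34 ± 0.05, edgeR adjusted p = 3.256e-13), and Elovl6 and Acaca fell by 1.25 and 1.07 on the log2 scale. Of 36 hypoxia and glycolysis genes 22 fell and 7 rose (median -0.30). Car9, carbonic anhydrase 9, went from 127.4 and 127.8 CPM to 58.4 and 58.6 CPM (-1.13 ± 0.05), whereas Bnip3 (0.97) and Ldha (0.69) rose. In the nitric oxide and arginine list 8 of 13 rose, including Ass1 (1.40 ± 0.07), and 2 fell, Ddah2 (-0.17) and Nos2, inducible nitric oxide synthase, from 1304 and 1315 CPM to 787.5 and 768.2 CPM (-0.75 ± 0.04). Ddah2 was not called without control replicate 1 or sgRNA2 replicate 1, or with upper quartile scaling (-0.07) or total counts alone (-0.10). Of 32 lysosome and autophagy genes 10 rose and 10 fell (31.2% each), near the 30.2% and 31.6% of all genes. The kinase gene Ulk1 (-1.09) was the largest fall of that list. The list's median of -0.04 was 0.07 with upper quartile scaling and 0.04 with total counts alone. With the length offset it was -0.12, with 14 lower and 11 higher. Of 13 zinc and metallothionein genes 4 fell and 3 rose (median -0.08, and 0.03 with upper quartile scaling), with 1 fall without control replicate 2 and 2 falls without either sgRNA2 library. With the length offset 6 of them fell and 2 rose (median -0.15).

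Identity and matrix genes came next. Of 26 epithelial identity genes 18 fell and 5 rose (median -0.43), beside the lower summed epithelium markers given above. Ehf, an epithelial ETS factor gene, went from 97.8 and 98.8 CPM to 37.3 and 33.5 CPM (-1.48 ± 0.06, edgeR adjusted p = 2.797e-12), while the claudin gene Cldn3 rose (1.23 ± 0.07). Of 21 mesenchymal and matrix genes 13 fell and 3 rose (median -0.57), among the falls Fn1, fibronectin (-0.85 ± 0.04). The median was -0.29 with length and GC together. Without control replicate 1 or sgRNA2 replicate 2, 1 gene of that list was called higher. Of 24 TGF-beta targets and Smads 14 fell and 5 rose. Ccn2, a matricellular growth factor, rose from 19.7 and 22.98 CPM to 68.1 and 67.9 CPM (1.67 ± 0.06), and Smad3 fell by 1.08 on the log2 scale. Of 19 metalloproteinase and plasminogen genes 6 rose and 6 fell (31.6% each), near the 30.2% and 31.6% of all genes. The list's median was 0.09, and -0.03 with the length offset. The plasminogen activator gene Plat (12.57 and 13.26 CPM in control, 34.31 and 38.74 CPM with sgRNA2) rose. Of 30 AP-1 and MAPK feedback genes 14 fell and 5 rose (median -0.34), with Etv5 (-1.03), Spred2 (-0.98) and Etv4 (-0.83) falling and Atf3 rising (0.85 ± 0.05). Of 8 genes of the COP1 ligase and its Tribbles adaptors 5 fell and 2 rose, with Trib2 going from 16.5 and 16.8 CPM to 5.10 and 4.79 CPM (-1.76 ± 0.11). Without control replicate 2 or sgRNA2 replicate 1, 1 of the COP1 list was called higher.

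sgRNA2 was then set against sgRNA1 in IFN-gamma, to see where the guides differ. Of 13601 genes 6518 were called (47.9%), 3182 higher with sgRNA2 (23.4%) and 3336 lower (24.5%). With total counts alone as the scaling the higher share of these calls was 33%, against 48.8% here. Cebpd was at 45.9 and 45.6 CPM with sgRNA1, above both sgRNA2 libraries (-0.62 ± 0.09, edgeR adjusted p = 1.271e-05). Fasn was at 347.5 and 357 CPM with sgRNA1, also above both (-1.10 ± 0.05, adjusted p = 2.215e-11 by edgeR). Of the 51 ribosomal protein genes 49 were higher with sgRNA2 than with sgRNA1, and of the 40 ribosome biogenesis genes 35 were lower. Against control, sgRNA1 had 0 ribosomal protein genes higher and 31 lower (median -0.24), where sgRNA2 had 41 higher and 0 lower. Of unscaled counts these genes took 5.79% and 5.46% with sgRNA1, beside 5.79% and 5.77% in control. The fall with sgRNA1 therefore depends in part on the TMM scaling, and it was not recomputed with other scalings. Ribosome biogenesis genes moved with sgRNA1 as with sgRNA2, 35 higher and 1 lower (median 1.07). Over all genes tested, sgRNA1 had 4302 higher and 4523 lower than control. Rps3 was at 1753 and 1584 CPM with sgRNA1, below both sgRNA2 libraries (0.90 ± 0.04, edgeR adjusted p = 8.965e-11). Of 30 AP-1 and MAPK feedback genes 24 were lower with sgRNA2 than with sgRNA1. Against control, sgRNA1 had 15 of them higher and 7 lower (median 0.43), where sgRNA2 had 5 higher and 14 lower. Nop56 stood at 349.2 and 341.4 CPM with sgRNA1 (-0.65 ± 0.04). For Gbp4 the difference between guides was -0.06 (edgeR adjusted p = 0.2184) and for Dmpk -0.13 (adjusted p = 0.6027 by edgeR). Against the shared control libraries, sgRNA1 and sgRNA2 gave log2 fold changes of 4.48 and 4.10 for Il6, -0.98 and -1.04 for Gbp4, -1.64 and -1.35 for C3, and -0.24 and -1.34 for Fasn.

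The difference between sgRNA2 and control was then compared between treatments. The test of the sgRNA2 difference in IFN-gamma minus that in vehicle called 8860 genes (65.1%), 4135 higher (30.4%) and 4725 lower (34.7%). In vehicle itself, sgRNA2 libraries had 38.3% of genes higher and 35% lower than control. Of 13601 genes, 2771 (20.4%) were called in both treatments with opposite signs and for the difference, 1364 of them higher in vehicle and lower in IFN-gamma. Txnip, which binds thioredoxin, is an example, and overlaps Gm15441 on the opposite strand. In vehicle it was at 17.6 and 18.7 CPM in control and 273.9 and 275.6 CPM with sgRNA2, and in IFN-gamma at 125.9 and 127.9 CPM and 43.2 and 43.9 CPM (difference -5.46 ± 0.07, edgeR adjusted p = 6.651e-19).

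IFN-gamma response genes were higher with sgRNA2 in vehicle, where 29 of 39 rose and 3 fell (median 2.19), and 30 of 39 were called lower for the difference. Some were near 0 in vehicle controls, such as Gbp4 at 0.775 and 1.05 CPM against 7.57 and 7.55 CPM with sgRNA2. Nos2 in vehicle was at 6.87 and 7.45 CPM in control and 105.6 and 106.7 CPM with sgRNA2 (difference -4.64 ± 0.08, edgeR adjusted p = 1.816e-17). Ribosome biogenesis genes went the other way, with 39 of 40 lower in vehicle (median -1.70) and 39 higher for the difference. Nop56 in vehicle was at 505.7 and 490.6 CPM in control and 158.3 and 153.5 CPM with sgRNA2 (difference 3.02 ± 0.06). Hypoxia and glycolysis genes had 30 of 36 higher in vehicle and 33 lower for the difference. S phase genes had 37 of 43 lower in vehicle and 40 higher for the difference. Cytosolic ribosomal protein genes had 48 of 51 higher in vehicle (median 0.55), and 3 higher and 29 lower for the difference. mt-Co1 in vehicle was at 2194 and 1971 CPM in control and 6763 and 6711 CPM with sgRNA2, against its fall in IFN-gamma (difference -2.90 ± 0.07). The log2 fold change of Il6 was 4.04 in vehicle, where its control CPM was 0.0517 and 0.0524, and 4.10 in IFN-gamma (difference 0.06 ± 0.75, edgeR adjusted p = 0.9621).

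**Figure D5:**
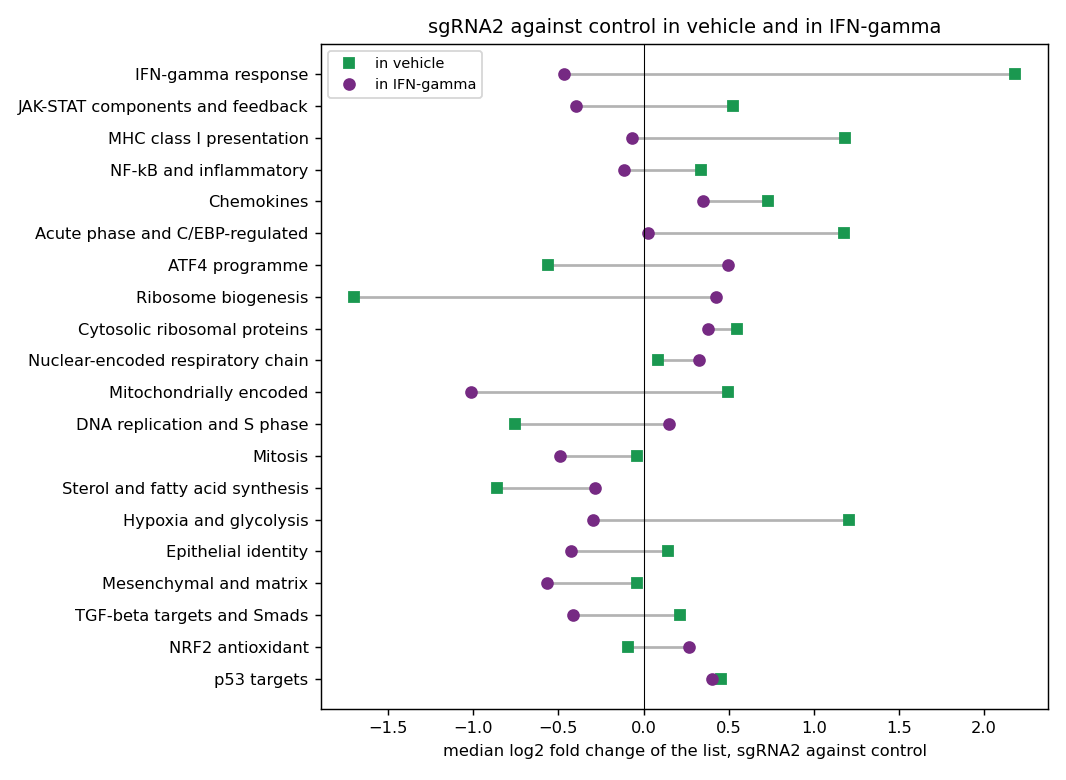
For 20 gene lists, the median log2 fold change of sgRNA2 against control is plotted in vehicle (green squares) and in IFN-gamma (purple circles). The IFN-gamma response list lies at 2.19 in vehicle and -0.47 in IFN-gamma, and ribosome biogenesis at -1.70 and 0.43.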

How the data were processed

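Total RNA of the 12 samples was sequenced (TruSeq RNA kit, 1 ug of total RNA, per the labels' protocols). The authors deposited raw whole-number counts for each gene. STAR 2.4.0, HTSeq, DESeq2 1.10 and the build mm10 appear, without their roles, per the submitters' processing notes. Neither the strand setting nor the annotation is given in the sources used here. Of 16283 names, 15941 were found in GENCODE vM21 (GRCm38) directly and 221 by a synonym.

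From the deposited counts, edgeR 4.0.16 (R 4.3.3) fitted TMM-scaled quasi-likelihood models with 1 term per group over all 12 libraries, after filterByExpr (minimum count 10, total 15). Adjusted p is Benjamini-Hochberg over 13601 genes, called below 0.05. CPM uses TMM library sizes. A ± is an SE derived from the test statistic, so it adds nothing to the test. The common biological coefficient of variation was 4.67%, with 6 residual degrees of freedom. Counts limit precision most below 1 CPM. Replicates of sgRNA2 in IFN-gamma differed more (chi-square per degree of freedom 6.95) than those of control (2.96), and none agreed within sampling noise. The code was tested on simulated data. DESeq2 1.42.0 was an alternative.

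Named genes were Cebpd, the 10 largest rises and falls at a mean of at least 1 CPM without overlap of the pairs, the 8 largest at 50 CPM or more, and up to 3 rises and 3 falls per gene list. A few of these genes are not reported here. Any others were chosen after their values were seen. The comparison and the 35 lists were chosen with earlier results of these data known.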

Additional observations from a re-analysis of the deposited data

Results flagged for a closer look

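The sgRNA2 difference from control was not the same in both treatments for 8860 of 13601 genes, by the edgeR test of the log2 fold change in IFN-gamma minus that in vehicle. Among the 211 named genes 173 passed it at an adjusted p below 0.05, of which 170 are given with that value. Where vehicle controls had few or no counts, as for H2-Ab1 and C1s2, the size depends on the fit's prior count. It was -1.02 for Cebpd, the targeted gene, which fell by 0.78 in IFN-gamma and so lay above control in vehicle by this estimate. Among the largest changes it was -2.55 for Fgfr1, -0.66 for Cyp1b1, -2.49 for Ndrg2, 0.81 for Sema3c, -4.70 for Asb2, -2.15 for Aqp1, -2.78 for Dmpk and -5.19 for Pigr. Further large changes gave -4.47 for Add2, -3.57 for Ltf, 1.44 for Ccl2, 2.08 for Psph, 2.30 for Rexo2, 2.39 for Tyms, 0.81 for Alg5, 2.27 for Yrdc and -2.50 for Arhgap18. The remaining ones gave -1.33 for Rnf145, -1.9991 for Plet1, -2.07 for Lrp1, -1.98 for Mknk2, -2.16 for Cx3cl1, -1.04 for Sorl1 and -5.46 for Txnip. In the IFN-gamma response list it was -0.50 for Gch1, -2.45 for Cxcl11 and -4.09 for Gbp4. For the type I interferon-stimulated group it was -1.69 for Cmpk2, -2.05 for Mx2, -3.26 for Rsad2, -3.25 for Ifi27l2a, -4.49 for Oas3 and -0.59 for Ifit2. MHC class I presentation genes gave -0.91 for Psme2, -2.69 for H2-Q7, -1.61 for Tapbp and -1.74 for Tap2. In the MHC class II presentation list it was -7.75 for H2-Ab1, -1.48 for H2-DMa and -4.45 for Cd74. For the checkpoint and NK ligands group it was -2.92 for Fas, -0.92 for Nectin2, -4.76 for Vsir, -4.30 for Tnfrsf14 and -1.53 for Cd274. JAK-STAT components and feedback genes gave 0.54 for Ptpn2, -2.22 for Usp18, -1.61 for Il6ra and -2.19 for Tyk2. In the NF-kB and inflammatory list it was -1.74 for Cd40, 1.59 for Csf2, -1.50 for Bcl3 and -1.82 for Nfkbia. For the chemokines group it was 1.81 for Ccl20 and -4.59 for Cxcl9. Acute phase and C/EBP-regulated genes gave -3.23 for C3 and -2.73 for Steap4. In the C/EBP list it was 1.59 for Cebpz and -1.82 for Ddit3. For the complement group it was -6.76 for C1s2, 0.68 for Cr1l and -2.98 for C1s1. Cell death genes gave 1.62 for Fadd, 0.59 for Bax, -1.48 for Bbc3, -0.34 for Bcl2 and -4.58 for Bmf. In the sterol and fatty acid synthesis list it was 2.88 for Hsd17b7, 0.51 for Pmvk, 1.74 for Idi1, 1.03 for Fasn, 0.33 for Elovl6 and 0.29 for Acaca. For the hypoxia and glycolysis group it was -1.47 for Bnip3, -1.07 for P4ha2, 0.21 for Ldha, -1.59 for Pfkfb4, -3.17 for Car9 and -0.99 for Hk2. Nuclear-encoded respiratory chain genes gave 1.57 for Uqcrq, 0.34 for Ndufb8 and -0.56 for Sdhc. In the mitochondrially encoded list it was -1.17 for mt-Nd2, -1.77 for mt-Nd4l and -2.90 for mt-Co1. For the DNA replication and S phase group it was 3.41 for Ccne2, 3.45 for Ccne1, 0.43 for Mcm6, 0.36 for Uhrf1 and 0.64 for Chaf1a. Mitosis genes gave 0.38 for Mad2l1, 0.47 for Cdk1, -0.63 for Cenpa, -0.97 for Cenpf, -1.05 for Cenpe and -0.66 for Mki67. In the cytosolic ribosomal proteins list it was -0.32 for Rps3 and -0.37 for Rps24. For the ribosome biogenesis group it was 3.02 for Nop56, 2.54 for Gnl3, 2.50 for Nhp2, 1.28 for Ncl, 0.76 for Ubtf and 1.26 for Bms1. MYC network genes gave 2.07 for Mir17hg, 1.66 for Mlx, 2.49 for Nme1, -1.30 for Mnt, -2.34 for Mxd1 and -1.48 for Mxi1. In the ATF4 programme list it was 3.57 for Slc7a11 and 1.92 for Chac1. For the NRF2 antioxidant group it was 0.74 for Nqo1, 0.35 for Hmox1, -0.65 for Gsr, -0.24 for Nfe2l2 and -0.21 for Keap1. ER chaperones and unfolded protein response genes gave 0.31 for Selenos, -0.73 for Dnajb9, -0.30 for Sdf2l1, -0.70 for Ern1, -0.26 for Edem1 and -1.13 for Eif2ak3. In the p53 targets list it was 3.21 for Tigar, 4.04 for Aen, 1.01 for Plk2, -4.01 for Trp53inp1 and -1.41 for Sesn1. For the AP-1 and MAPK feedback group it was 0.81 for Atf3, 1.18 for Phlda1, 0.76 for Klf6 and -0.35 for Etv4. TGF-beta targets and Smads genes gave 1.00 for Ccn2, 0.41 for Ccn1, -0.93 for Smad3, -2.48 for Tgfb3 and -2.40 for Tgfbi. In the epithelial identity list it was -1.91 for Ehf, -2.47 for Elf3 and -1.01 for Gata3. For the mesenchymal and matrix group it was -1.07 for Postn, 0.59 for Timp1, -3.03 for Col6a1, -0.82 for Fn1 and -0.85 for Sparc. Matrix metalloproteinases and plasminogen system genes gave -0.98 for Plat, -2.37 for Mmp11 and -1.42 for Serpine2. In the zinc and metallothionein list it was 0.86 for Slc39a14, 1.54 for Slc39a6, -0.51 for Slc39a10 and -0.42 for Slc30a4. For the methionine and one-carbon group it was 1.79 for Cth, 2.94 for Mthfd2, -0.57 for Ahcyl2, -0.37 for Mtap and -0.48 for Ahcyl1. Nitric oxide and arginine genes gave 0.56 for Ass1, -4.64 for Nos2 and -2.58 for Ddah2. In the lysosome and autophagy list it was 0.67 for Atg5, -1.81 for Map1lc3a, -1.77 for Ulk1, -1.11 for Psap and -0.68 for Gaa. For the COP1 and Tribbles group it was 0.72 for Trib3, 0.93 for Det1, -1.42 for Trib2 and -0.29 for Cop1.

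The guides also differed from each other in IFN-gamma, with 6518 genes called by edgeR for sgRNA2 against sgRNA1. Of the named genes 131 passed, of which 130 are given, and the value is the log2 fold change of sgRNA2 over sgRNA1. It was -0.62 for Cebpd, the targeted gene. Among the largest changes it was -1.31 for Ptx3, -0.38 for Il6, 0.84 for Tmem159, -0.66 for Cyp1b1, -0.58 for Sema3c, 2.22 for Add2, -0.37 for Ccl2 and 0.46 for Psph. Further large changes gave 0.43 for Alg5, -0.26 for Yrdc, 0.74 for Arhgap18, -0.74 for Rnf145, -0.25 for Plet1, -0.21 for Lrp1, -0.14 for Mknk2, 0.16 for Cx3cl1 and -0.70 for Txnip. In the IFN-gamma response list it was 0.66 for Cxcl11. For the type I interferon-stimulated group it was -0.38 for Cmpk2, 0.65 for Rsad2, 2.49 for Ifi27l2a, 0.51 for Oas3 and 1.02 for Ifit2. MHC class I presentation genes gave 0.39 for Psme2, 0.49 for H2-Q7, 0.18 for Pdia3 and -0.47 for Erap1. In the checkpoint and NK ligands list it was 0.72 for Fas, 0.85 for Vsir and 0.58 for Cd274. For the JAK-STAT components and feedback group it was 0.24 for Ptpn2, 0.23 for Usp18, -0.45 for Il6ra and 0.41 for Tyk2. NF-kB and inflammatory genes gave 0.64 for Cd40, -1.47 for Csf2, -0.21 for Nfkbia and -0.29 for Nfkb1. In the chemokines list it was -0.54 for Ccl7 and -1.24 for Ccl20. For the acute phase and C/EBP-regulated group it was -0.75 for Saa3, 0.30 for C3, -0.73 for Steap4 and -0.36 for Mmp3. Genes of the C/EBP list gave -0.41 for Cebpz and 0.15 for Ddit3. In the complement list it was 0.18 for C1s1 and 0.44 for C4b. For the cell death group it was -0.39 for Fadd and 0.62 for Bmf. Sterol and fatty acid synthesis genes gave -0.73 for Hsd17b7, -0.23 for Idi1, -1.10 for Fasn, -0.75 for Elovl6 and -0.26 for Acaca. In the hypoxia and glycolysis list it was 0.14 for Bnip3, -0.51 for P4ha2, -0.21 for Ldha, 0.35 for Car9 and 0.17 for Hk2. For the nuclear-encoded respiratory chain group it was 0.57 for Ndufb8, 0.68 for Atp5e and 0.25 for Sdhc. Mitochondrially encoded genes gave -0.29 for mt-Nd2 and 0.50 for mt-Co1. In the DNA replication and S phase list it was -1.03 for Ccne2, -0.80 for Ccne1, -0.19 for Uhrf1 and -0.31 for Chaf1a. For the mitosis group it was 0.26 for Mad2l1, 0.46 for Cenpa, -0.55 for Cenpf, -0.40 for Cenpe and -0.39 for Mki67. Cytosolic ribosomal proteins genes gave 0.90 for Rps3, 0.96 for Rps24 and 0.68 for Rps27. In the ribosome biogenesis list it was -0.65 for Nop56, -0.22 for Gnl3, -0.36 for Nhp2, -0.50 for Ncl, -0.31 for Ubtf and -0.53 for Bms1. For the MYC network group it was -0.49 for Nme1 and 1.04 for Mxd1. ATF4 programme genes gave -0.35 for Chac1. In the NRF2 antioxidant list it was 0.53 for Nqo1, -0.35 for Hmox1, -0.16 for Gsr and 0.17 for Nfe2l2. For the ER chaperones and unfolded protein response group it was 0.72 for Dnajb9 and 0.71 for Sdf2l1. The p53 targets gave -0.87 for Aen, -0.33 for Plk2, 0.65 for Trp53inp1 and 0.44 for Sesn1. In the AP-1 and MAPK feedback list it was -0.60 for Atf3, -0.68 for Phlda1, -0.74 for Klf6, -0.21 for Etv5 and -0.36 for Spred2. For the TGF-beta targets and Smads group it was -1.12 for Ccn2 and -0.11 for Ccn1. Epithelial identity genes gave -0.29 for Cldn3, -0.18 for Ehf, -0.21 for Elf3 and 0.20 for Gata3. In the mesenchymal and matrix list it was -0.33 for Timp1, -0.22 for Fn1 and 0.15 for Sparc. For the matrix metalloproteinases and plasminogen system group it was 0.26 for Plat, -0.91 for Mmp10, 0.59 for Mmp11 and -0.39 for Mmp14. Zinc and metallothionein genes gave -0.51 for Slc39a14, -0.51 for Slc39a6, -0.11 for Slc39a1 and 0.54 for Slc39a10. In the methionine and one-carbon list it was 0.39 for Mtap and 0.18 for Ahcyl1. For the nitric oxide and arginine group it was 0.18 for Ass1 and 0.96 for Ddah2. Lysosome and autophagy genes gave 0.30 for Gabarapl2, 0.43 for Map1lc3a, 0.20 for Ulk1, 0.16 for Psap and 0.22 for Gaa. In the COP1 and Tribbles list it was -0.95 for Trib2 and -0.55 for Trib1.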

How the results depend on the processing

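The alternatives were other scalings (upper quartile, RLE, total counts alone), no filter or a 1 CPM filter, DESeq2, a replicate block, a fit on the compared libraries alone, an adjusted p below 0.01 and each library left out, plus offsets for length and for length with GC, chosen after seeing the data. All 147 recomputed counts of called genes stayed within 1.5 times the reported count. DESeq2 called 7603 genes in the main comparison and the length offset 8025. Leaving out 1 library gave 7427 to 7721 calls, 5037 to 5519 for sgRNA2 against sgRNA1 and 8365 to 8515 for the difference between treatments. A single library left in a group is assumed to vary like the other groups. Of the named genes' values under alternatives, 2872 kept their direction and call, 77 kept the direction and lost the call, and 5 changed sign. Those 5 were Timp1 (-0.0677 with the length offset and -0.0975 with length and GC), Slc39a1 (-0.013 with the length offset), Pdia3 (-0.0267) and Usp18 (-0.0383), both with length and GC. The cause was not tested. Of the recomputed list counts, 979 stayed within 1.5 times and 71 did not. Of the recomputed list medians, 309 moved by less than 1 SD of the list median over the 4 pairs of an sgRNA2 and a control library and 181 by more. Shared replicate numbers did not pair the samples (correlation of deviations -0.02 between control and sgRNA2 in IFN-gamma), and the replicate block gave 8368, 6492 and 8807 calls in the 3 comparisons with no named call lost. Against total counts alone, the higher share of calls for sgRNA2 against sgRNA1 went from 48.8% to 33%. Genes with few counts have wide errors, as Ptx3 and Sele show.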
